A study of Mus musculus with 6 samples.

Results

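The genes described here encode the nuclear subunits of the mitochondrial respiratory chain and of the ATP synthase. They were chosen by name: the annotation had to tie a probe set to a single gene, and the symbol had to begin with Nduf, Uqcr, Cox4 to Cox8 or Atp5, or be Sdha, Sdhb, Sdhc, Sdhd, Cyc1 or Cycs. Ndufa4 was left out. The naming rule uses no measured value. This gave 90 genes of the 19938 on the array, each read from its brightest probe set: 35 named as complex I subunits, 7 complex I assembly factors (Ndufaf), 4 of complex II, 9 of complex III, cytochrome c itself, 17 of complex IV and 17 of complex V.

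Tumour-associated macrophages, that is macrophages taken out of a tumour, were sorted by flow cytometry from hepa1-6 hepatomas growing in the liver of C57BL/6 mice. The mice had received vehicle or PLX3397, an inhibitor of the receptor kinases CSF1R, KIT and FLT3, and each group has 3 arrays (Affymetrix Mouse Gene ST). The comparison asks how the transcripts of these macrophages differ under the drug. The dose, the duration, the ages and whether each array is 1 animal or a pool are not stated in the labels, so p-values measure the spread between these samples, which may be technical. The description field adds a second name that does not match the treatment, M(LPS+IFNγ) for the vehicle arrays and M(IL4) for the PLX3397 arrays. The titles, sources and treatment fields name the same groups and were used.

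Complexes I to IV pass electrons from NADH and succinate to oxygen through coenzyme Q and cytochrome c, and complexes I, III and IV pump protons out of the mitochondrial matrix as they do so. Complex V, the ATP synthase, lets the protons back in through a rotating ring of c subunits and makes ATP in its F1 head. In macrophages this chain also takes part in signalling, because electrons leaving complexes I and III form reactive oxygen species and because succinate links complex II to inflammatory responses.

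Values are the deposited log2 levels. A change is PLX3397 minus vehicle on that scale, given with its standard error (SE), and adjusted p-values come from limma over all 19938 genes with Benjamini-Hochberg correction and a threshold of 0.05. The array medians were 0.13 higher in the PLX3397 group than in vehicle, so centring each array on its median lowers every change by that amount. A gene counts as above background where it exceeds a level that 95% of 1194 odour and pheromone receptor genes stay under, which lay between 3.52 and 3.58. Of 9 measured macrophage genes of a list of 10, all were above background on the 6 arrays, and their summed level, which follows the brightest genes, was 14.35 to 14.37 in vehicle and 14.38 to 14.48 with PLX3397. Of these 9 genes 2 rose and 4 fell, with changes from -1.996 (C1qa) to 0.97 (Itgam) and a median of -0.19. Markers of other cells differed in part. Of 6 endothelial genes 4 rose, by 1.03 (Cdh5) to 1.70 (Kdr), and their summed level was 7.18 to 7.31 in vehicle and 8.67 to 8.72 with PLX3397. Of 9 hepatocyte genes 1 rose, Trf, by 2.85, and it carries a summed level of 8.73 to 8.88 in vehicle and 11.2 to 11.6 with PLX3397. The median change of the 9 was 0.08, and 4 of them, Alb among them, were below background on all arrays. Of 7 T cell genes 2 rose, Lat by 1.95 and Cd2 by 0.32, with a median change of 0.06, and 3 were below background on all arrays. Their part in the results below was not tested, and in sorted bulk samples fewer cells of a type and less RNA per cell cannot be told apart. PLX3397 replicate 3 stood apart: 37 genes exceeded its group mates' mean by over 2 log2 there, and 0 did so on any other array.

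Some promoter letters were more frequent among these genes than among others, though most of the windows lack each of them. RefSeq promoter windows (GRCm38.p6), the 250 bases before a transcript start, were at hand for 73 of the 90 genes, in 78 windows. The letters GCATGCGC, the core of the site bound by the factor NRF1, or their reverse complement GCGCATGC, stood in 10 of the 78 windows (12.8%), against 2.26% of all 32851 windows and 2.93% of the windows of protein-coding genes. The ETS-type letters CCGGAA or TTCCGG, which the factor GABPA can bind, stood in 26.9% of the members' windows, 12.03% of all and 15.0% of protein-coding ones. The shares for CCAAT or ATTGG were 43.6%, 33.8% and 35.4%. The median GC content was 57.4% in the members' windows, 52.4% in all windows and 55.6% in protein-coding ones, and its part in these shares was not tested. The 10 NRF1-type matches are shown because theirs is the motif whose share differed most, as a ratio, from that of all windows. Each is 30 bases 5′ to 3′ on the gene's strand, with the matched letters in capitals, and overlapping matches on both strands merge into 10 capitals.

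Cycs, chr6:50566611-50566640, minus strand: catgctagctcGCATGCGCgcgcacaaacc
Ndufa11, chr17:56717692-56717721, plus strand: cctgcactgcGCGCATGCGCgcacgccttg
Ndufa6, chr15:82354356-82354385, minus strand: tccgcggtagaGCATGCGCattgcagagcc
Ndufa8, chr2:36049339-36049368, minus strand: gcgcttgcgcgtcgctggagacGCATGCGC
Ndufaf4, chr4:24897960-24897989, plus strand: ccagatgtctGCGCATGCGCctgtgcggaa
Sdhb, chr4:140961206-140961235, plus strand: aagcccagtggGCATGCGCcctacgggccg
Cox6a1, chr5:115349101-115349130, minus strand: caggaacgggGCGCATGCGCgctctcgctc
Atp5g2, chr15:102671070-102671099, minus strand: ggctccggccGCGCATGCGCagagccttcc
Atp5k, chr5:108434430-108434459, minus strand: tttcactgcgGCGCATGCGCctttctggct
Atp5l, chr9:44920963-44920992, minus strand: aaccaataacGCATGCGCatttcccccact

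Of these 10 genes, 4 fell with PLX3397 (Ndufaf4, Cycs, Atp5g2 and Cox6a1), Atp5l rose and 5 did not pass the test. Among all 73 members with a window 15 fell, 8 rose and 50 did not pass, and 37.8% of all genes passed. A link between the letters and the direction of change was not tested. A match describes the letters of a window and says nothing on whether a factor was bound in these cells.

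As a whole the chain changed little between the groups. Of the 90 genes 9 rose and 19 fell, so that 31.1% passed the test, against 37.8% of all genes (19.6% higher and 18.3% lower). Without vehicle replicate 2 the number that rose was 5, and without vehicle replicate 3 the number that fell was 10. With arrays centred on their medians the split was 3 higher and 31 lower, against 2282 and 5169 of all genes. The median change of the members was -0.04, against 0.04 for all genes, and the middle 50% of the members lay between -0.23 and 0.15.

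The comparison with all genes depends on level, since dim genes rarely pass. Of the 48 members with a mean level of at least 8, 15 passed (31.25%), against 65.7% of the 1975 genes that bright. Of these members 7 rose and 8 fell, against 33.3% and 32.4% of the bright genes. Without vehicle replicate 2 or 3 the members' count was 9, against 1164 and 1175 bright genes. The standard deviation of the changes was 0.26 among those 48 and 0.85 among those 1975. Over the 17 other settings the members' share ran from 14.6% to 43.75% and that of all bright genes from 54.2% to 71.8%. A change of at least 0.5 log2 past the test was found for 7 of 90 members, against 20.0% of all genes, and of at least 1 log2 for 1 member, Ndufaf4, against 7.25%. The groups did not overlap for 41 of the 90, against 49.3% of all genes, with 16 higher (27.4% of all genes) and 25 lower (21.9%).

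**Figure D1:**
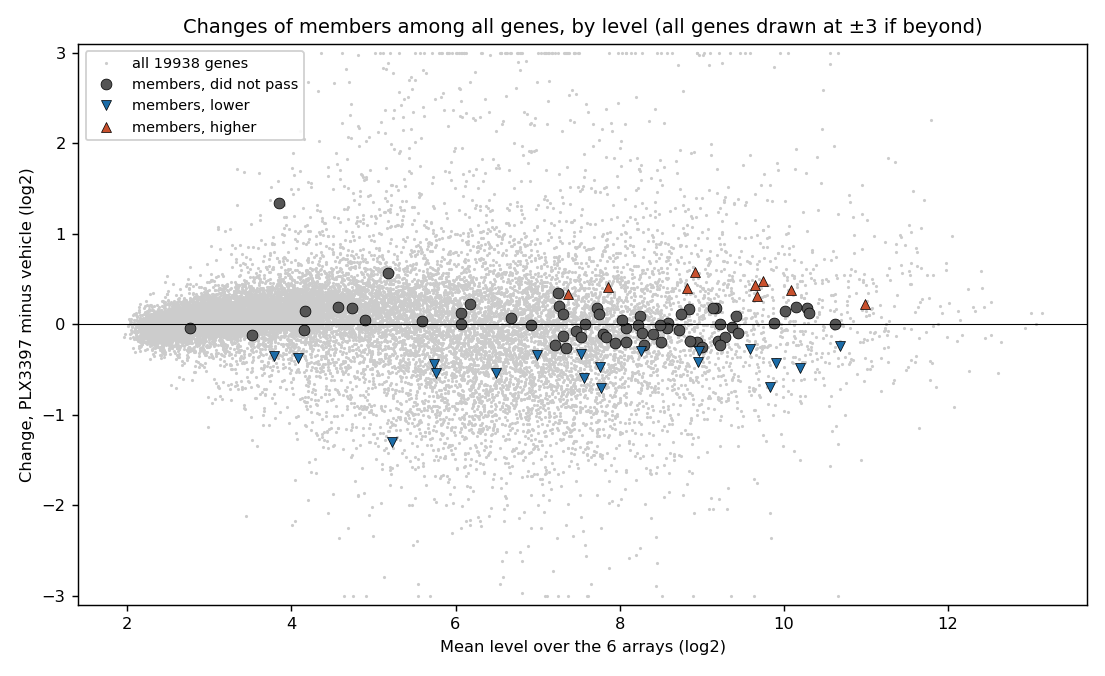
Each point is 1 gene, with its mean log2 level over the 6 arrays across and its change with PLX3397 (log2) upward. Most members (large symbols) lie in a narrow band around 0. At a level of at least 8 all genes (grey, held at the plot's edge where beyond) spread further than the members. Ndufaf4 is the lowest member at -1.30, and Cox8b, which did not pass the test, is the highest at 1.35.

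Complex I takes electrons from NADH. Of its 35 genes 2 rose and 7 fell, a share of 25.7%. That share was 37.8% among all genes and 63.1% among genes at a level of 6 to 8, where the median level of the complex (7.73) lies. The median change of the 35 genes was -0.04, and it was 0.01 with quantile normalisation and 0.00 without PLX3397 replicate 3. The complex has core subunits and supernumerary ones around them. Nuclear core subunits include those that carry the flavin and iron-sulphur clusters or the quinone site. Other core subunits, ND3 among them, are encoded in mitochondrial DNA, and ND3 is given further below. Of the 6 nuclear core subunits measured 0 rose and 2 fell (33.3%), and all 6 changes were below 0 as deposited. Among the 28 supernumerary subunits 2 rose and 5 fell (25%).

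Ndufs8, a core subunit with iron-sulphur clusters on the path to coenzyme Q, fell by 0.71. It was at 8.10, 8.01 and 8.28 in vehicle and at 7.42, 7.43 and 7.42 with PLX3397 (SE 0.09, limma adjusted p = 1.16e-04). The PLX3397 arrays lay almost on 1 value, below every vehicle array. Ndufs7, the core subunit next to the quinone site, was at 9.70, 9.73 and 9.75 and at 9.38, 9.56 and 9.43, a fall of 0.27 (SE 0.08, limma adjusted p = 0.023). The groups did not overlap, but the call was lost at a threshold of 0.01 and without vehicle replicates 2 or 3 or PLX3397 replicates 1 or 3.

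The other nuclear core subunits measured did not pass. Ndufs1, which carries most of the iron-sulphur clusters of the NADH-oxidising arm, changed by -0.26 (95% interval -0.48 to -0.04, limma adjusted p = 0.068). It passed in 4 other settings: with centred arrays, among genes with a mean level of at least 5, with array weights and without PLX3397 replicate 3. Ndufv1, which holds the flavin and binds NADH, changed by -0.14 (interval -0.40 to 0.12). Ndufs3 changed by -0.04 (-0.21 to 0.13) and Ndufv2 by -0.01 (-0.19 to 0.17).

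Among the supernumerary subunits the largest fall was that of Ndufa5, a subunit of the peripheral arm. It was at 6.74, 6.76 and 6.79 in vehicle and at 6.10, 6.23 and 6.34 with PLX3397, a change of -0.54 (SE 0.09, limma adjusted p = 6.35e-04). Ndufab1, which is also the acyl carrier protein of mitochondrial fatty acid synthesis, was at 8.04, 7.87 and 8.08 and at 7.55, 7.59 and 7.43, a change of -0.47 (SE 0.09, limma adjusted p = 0.0019). Ndufb3, a subunit of the membrane arm, went from 5.95 ± 0.04 to 5.51 ± 0.12 (mean ± SD, n = 3; limma adjusted p = 0.0026). In each of these genes every PLX3397 array was below every vehicle array. Ndufs4 and Ndufb7 fell by 0.33 and 0.34, calls lost at a threshold of 0.01 and without vehicle replicate 3, and for Ndufb7 also without vehicle replicate 2 or PLX3397 replicate 3. Without vehicle replicate 3 the complex had 5 calls in place of 9.

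Rises in complex I were those of Ndufa1 and Ndufv3. Ndufa1, a small subunit of the membrane arm, was at 7.64, 7.51 and 7.80 in vehicle and at 7.97, 8.24 and 7.99 with PLX3397, a change of 0.42 (SE 0.11, limma adjusted p = 0.010). Ndufv3, an accessory subunit of the NADH-oxidising arm, changed by 0.34 (SE 0.11, limma adjusted p = 0.034). Both lost the call with median-centred arrays and at a threshold of 0.01, and Ndufv3 also with array weights and without vehicle replicates 2 or 3 or PLX3397 replicate 2. The remaining 26 genes named as complex I did not pass, with changes from -0.26 (Ndufs1) to 0.35 (Ndufa12, limma adjusted p = 0.056).

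The assembly factors of complex I held the largest fall of the 90 genes. Of 7 Ndufaf genes 4 fell and 0 rose, with a median change of -0.35. This share of 57.1% stands against 37.8% of all genes, 18.3% of them lower, and 46.9% of genes at a level of 4 to 6. Without vehicle replicate 3 or PLX3397 replicate 1 the count of Ndufaf calls was 2. Ndufaf4, which works with Ndufaf3 early in the building of the quinone arm, was at 5.70, 6.21 and 5.72 in vehicle and at 4.19, 4.61 and 4.94 with PLX3397. Every PLX3397 array was below every vehicle array, and the change was -1.30 (SE 0.19, limma adjusted p = 3.25e-04), or 2.46-fold lower. Ndufaf3 was at 7.90, 7.78 and 7.91 and at 7.28, 7.33 and 7.20, a change of -0.59 (SE 0.08, limma adjusted p = 2.17e-04).

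Ndufaf5, an enzyme that modifies Ndufs7, and Ndufaf6 were dim and fell by 0.37 and 0.35. Ndufaf6 was above background on 3 vehicle and 2 PLX3397 arrays. Both calls were lost at a threshold of 0.01. That of Ndufaf5 was lost without vehicle replicates 2 or 3 or PLX3397 replicates 1 or 2, and that of Ndufaf6 without vehicle replicates 1 or 3 or PLX3397 replicate 1. Ndufaf1, Ndufaf2 and Ndufaf7 did not pass, with changes of 0.04, 0.19 and 0.19.

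**Figure D2:**
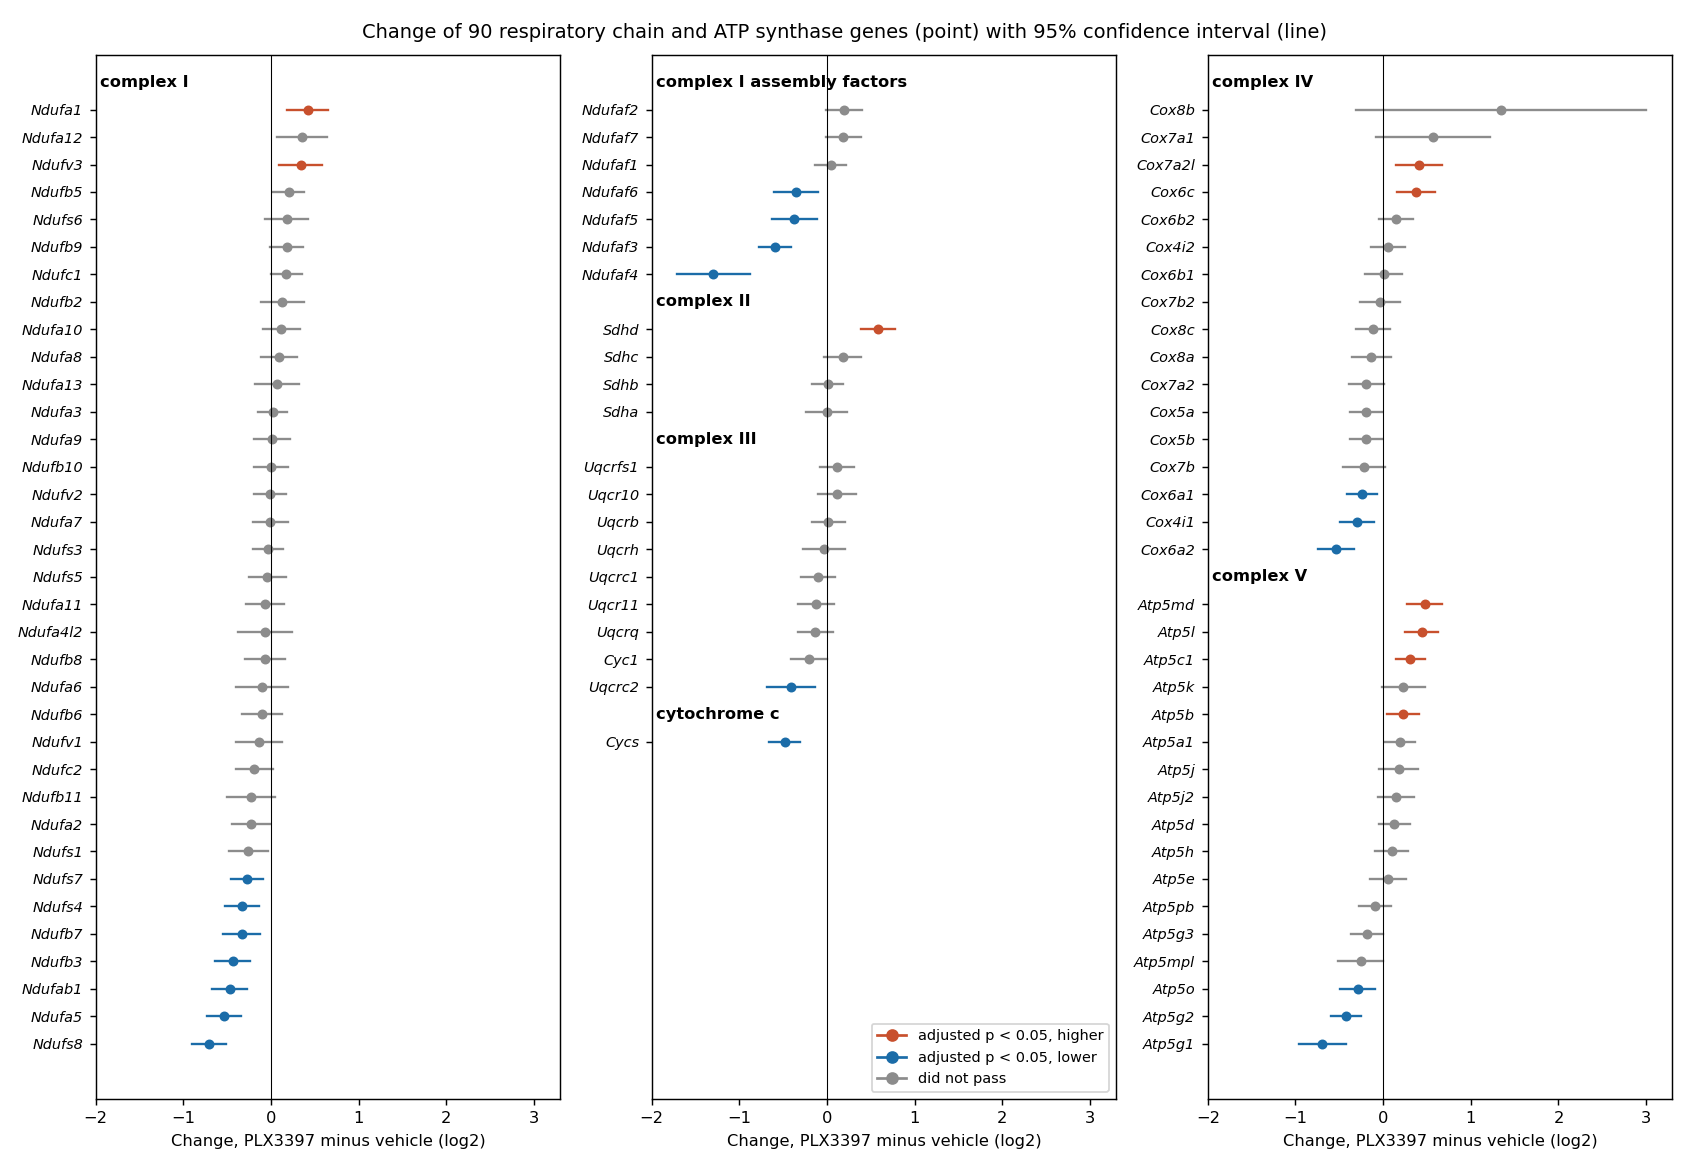
Points are the change of each of the 90 genes with PLX3397 (log2, across) and lines its 95% confidence interval, grouped by complex. Most intervals cross 0; Ndufaf4 at -1.30 stands lowest, Sdhd at 0.58 is the highest gene past the test, and Cox8b has an interval from -0.31 to 3.002.

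Complex II, succinate dehydrogenase, joins the chain to the tricarboxylic acid cycle. Sdhd, a membrane anchor at the quinone site, rose from 8.65, 8.61 and 8.63 to 9.12, 9.35 and 9.15, a change of 0.58 (SE 0.09, limma adjusted p = 3.96e-04), or 1.49-fold. This was the largest rise among the members past the test, and it was 0.44 with arrays centred on their medians. The other anchor, Sdhc, changed by 0.18 (interval -0.03 to 0.39). The flavin-bearing Sdha changed by -0.01 (-0.24 to 0.23) and the iron-sulphur subunit Sdhb by 0.01 (-0.17 to 0.19). The subunits of 1 enzyme thus had changes that ranged from -0.01 to 0.58.

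Complex III had 1 call among 9 genes (11.1%, against 37.8% of all genes), and cytochrome c fell. The median level of the 9 genes was 7.94, and 63.1% of genes at a level of 6 to 8 passed. Uqcrc2, a core protein of complex III, was at 9.16, 9.17 and 9.17 in vehicle and at 8.59, 8.61 and 9.06 with PLX3397, a change of -0.41 (SE 0.12, limma adjusted p = 0.023). PLX3397 replicate 3 lay near the vehicle arrays, and without it the change was -0.57 (limma adjusted p = 4.27e-04). The call was lost at a threshold of 0.01, with quantile normalisation and without any other 1 of the arrays. Cyc1, the haem subunit that hands electrons to cytochrome c, changed by -0.21 (interval -0.41 to 0.00, limma adjusted p = 0.111). The Rieske protein Uqcrfs1 changed by 0.12 (-0.08 to 0.31) and Uqcrc1 by -0.10 (-0.30 to 0.09).

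Cycs, the soluble cytochrome c that carries electrons to complex IV and triggers caspases when released, was at 10.49, 10.39 and 10.43 in vehicle and at 10.001, 9.86 and 9.996 with PLX3397. Every PLX3397 array was lower, and the change was -0.48 (SE 0.08, limma adjusted p = 8.47e-04). A further bright probe set of the gene changed by -0.53, and the dimmest was below background at 2.78.

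Complex IV reduces oxygen. Of its 17 genes 2 rose and 3 fell (29.4%, against 37.8% of all genes), with a median change of -0.11. Without vehicle replicate 2 it had 2 calls, and without vehicle replicates 1 or 3 or PLX3397 replicate 2 it had 3. Cox6c, a small membrane subunit, was at 9.91, 9.81 and 9.99 in vehicle and at 10.15, 10.45 and 10.24 with PLX3397, a change of 0.38 (SE 0.10, limma adjusted p = 0.012). Cox7a2l changed by 0.40 (SE 0.12, limma adjusted p = 0.021). Both calls were lost with centred arrays, at a threshold of 0.01 and without vehicle replicate 2, and that of Cox7a2l also without vehicle replicate 1 or PLX3397 replicate 2.

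Among the widely expressed subunits Cox4i1 and Cox6a1 fell. Cox4i1, whose protein takes part in the control of the enzyme by ATP, was at 8.996, 9.13 and 9.24 and at 8.86, 8.76 and 8.84, a change of -0.30 (SE 0.09, limma adjusted p = 0.022). Cox6a1 changed by -0.24 (SE 0.08, limma adjusted p = 0.033). The call of Cox4i1 was lost at a threshold of 0.01 and without vehicle replicates 2 or 3 or PLX3397 replicate 2, and that of Cox6a1 without any 1 array other than PLX3397 replicate 2, at a threshold of 0.01, with quantile normalisation and with the replicate number as a block (limma adjusted p = 0.066). Cox5a changed by -0.19 (interval -0.37 to -0.01, limma adjusted p = 0.087).

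**Figure D3:**
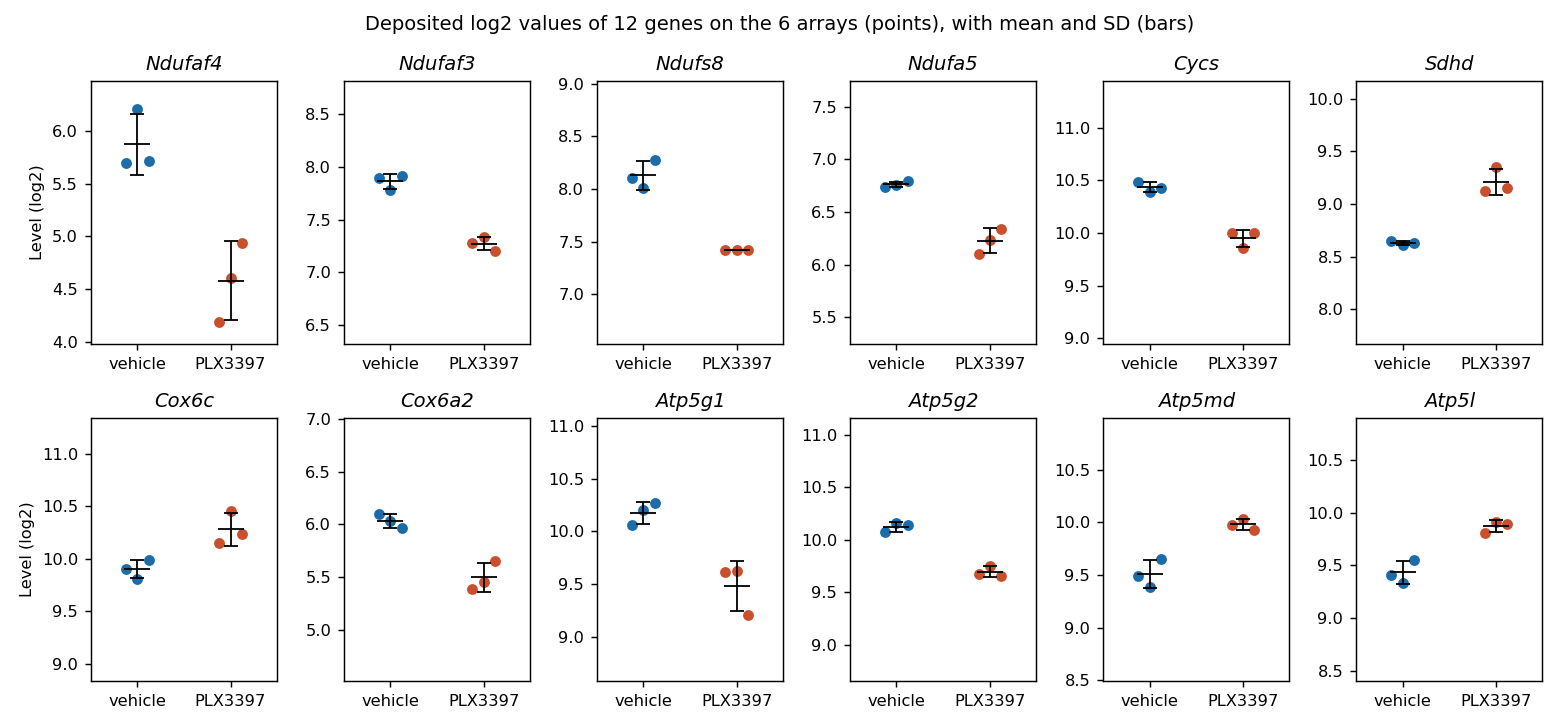
Log2 levels of 12 genes on the 3 vehicle and 3 PLX3397 arrays (points), with mean and SD (bars); every panel spans 2.5 log2. In each panel the groups do not overlap, with Sdhd, Cox6c, Atp5md and Atp5l higher and the other genes lower with PLX3397.

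Isoforms known from other tissues gave a separate picture. Cox6a2, the form of heart and skeletal muscle, was at 6.09, 6.03 and 5.96 in vehicle and at 5.38, 5.45 and 5.65 with PLX3397, a change of -0.53 (SE 0.09, limma adjusted p = 0.0011), and it kept the call in every setting that tested it. Cox8b, a form of muscle and brown fat, was below background on all vehicle arrays (3.34, 3.01 and 3.18) and on PLX3397 replicates 1 and 2 (3.20 and 3.52), and at 6.84 on PLX3397 replicate 3. Cox7a1, another form of muscle and brown fat, was at 4.73, 4.95 and 4.995 in vehicle and at 4.88, 5.18 and 6.31 with PLX3397. Neither passed (limma adjusted p = 0.192 and 0.161), and without that 1 array their changes were 0.19 and 0.14. Cox7a1 passed without PLX3397 replicate 1 (limma adjusted p = 0.036).

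Fat cell genes were high on the same array. Ucp1, the uncoupling protein of brown fat, was at 8.82 on PLX3397 replicate 3 and between 3.58 and 3.77 on the other arrays, and Cidea, a lipid droplet protein, at 7.35 against 3.38 to 3.58. All 8 genes of a fat list chosen after these values were seen were highest on that array, and their summed level was 6.71 to 6.83 in vehicle and 6.75, 6.81 and 10.09 on the PLX3397 arrays. The 6 muscle genes summed to 7.34 to 7.50 in vehicle and 7.64, 7.70 and 8.51 with PLX3397, with Acta1 at 7.70 on replicate 3. Macrophage genes on that array summed to 14.40, within the range of its group.

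Of the other tissue-restricted or inducible forms, Cox4i2 changed by 0.05, Cox6b2 by 0.15 and Ndufa4l2 by -0.07, and 0 of them passed. The testis form Cox7b2 was below background on all 6 arrays and Cox8c on all but 2 vehicle arrays. With Cox8b and Ndufaf6 these are the 4 members that were not above background on every array; the other 86 were.

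**Figure D4:**
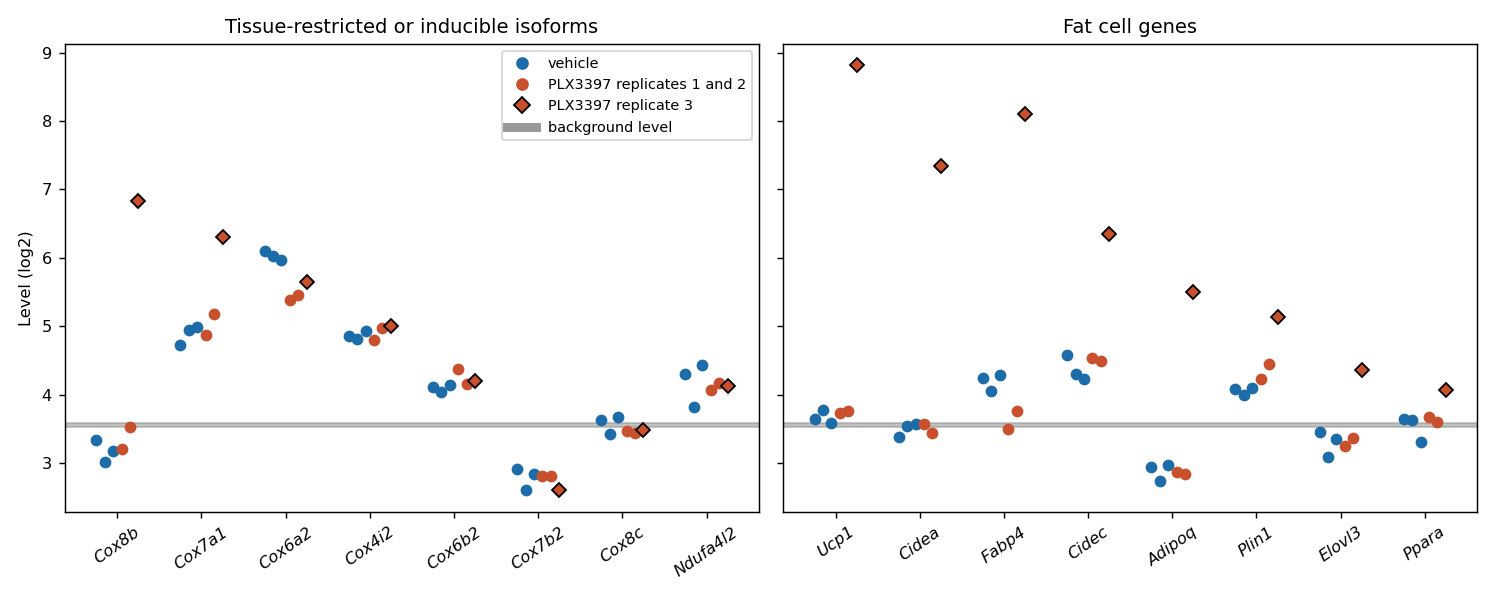
Log2 levels on each of the 6 arrays for the tissue-restricted or inducible isoforms (left) and 8 fat cell genes (right), with the background level as a grey band. PLX3397 replicate 3 (diamonds) is highest for Cox8b (6.84), Cox7a1 (6.31) and all the fat cell genes.

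Complex V had calls in both directions. Of 17 genes 4 rose and 3 fell, a share of 41.2% against 37.8% of all genes and 65.7% of those at a level of at least 8, where 16 of the 17 lie, with a median change of 0.13 that was -0.01 with arrays centred on their medians. In the F1 head, where ATP is made, 2 of 5 subunits rose (40%) and 0 fell. All 5 changes were above 0 as deposited, though Atp5d and Atp5e turn below 0 with centred arrays. Of the 3 genes of the c-ring 2 fell and 0 rose (66.7%, near the 65.7% of genes at a level of at least 8, where all 3 lie).

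Atp5g1, 1 of the 3 genes that encode the same mature c subunit with different import sequences, was at 10.06, 10.20 and 10.27 in vehicle and at 9.62, 9.62 and 9.21 with PLX3397. The change was -0.69 (SE 0.12, limma adjusted p = 0.0011), or 1.62-fold lower. Atp5g2 was at 10.07, 10.16 and 10.14 and at 9.68, 9.76 and 9.66, a change of -0.43 (SE 0.08, limma adjusted p = 0.0015). Atp5g3 changed by -0.19 (interval -0.37 to 0.00, limma adjusted p = 0.111), and its groups did not overlap either. All probe sets of Atp5g1 and Atp5g2 fell, by 0.41 to 0.69, and such probe sets may share sequence with gene copies.

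In the head, Atp5c1, the central stalk of the rotor, was at 9.53, 9.48 and 9.54 in vehicle and at 9.81, 9.86 and 9.81 with PLX3397, a change of 0.31 (SE 0.08, limma adjusted p = 0.0083). The catalytic subunit Atp5b was at 10.91, 10.81 and 10.92 and at 11.07, 11.06 and 11.19, a change of 0.23 on the threshold (SE 0.08, limma adjusted p = 0.0499) that lost the call on leaving out any 1 array, with centred arrays, with array weights, at a threshold of 0.01 and with the replicate number as a block (limma adjusted p = 0.073). Its partner Atp5a1 changed by 0.19 (interval 0.02 to 0.36, limma adjusted p = 0.078). The call of Atp5c1 was lost with centred arrays.

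Of the small subunits of the membrane part Atp5md and Atp5l rose. Atp5md was at 9.49, 9.38 and 9.65 and at 9.98, 10.04 and 9.93, a change of 0.48 (SE 0.09, limma adjusted p = 0.0019), and Atp5l, which sits where synthase dimers meet, changed by 0.44 (SE 0.09, limma adjusted p = 0.0023), with all 6 of its probe sets between 0.44 and 0.48. Atp5o, which joins the head to the outer stalk, fell by 0.29 (SE 0.09, limma adjusted p = 0.029). Its call was lost with the replicate number as a block (limma adjusted p = 0.058), at a threshold of 0.01 and without vehicle replicates 1 or 3 or PLX3397 replicates 1 or 3. The remaining 10 genes of the complex did not pass, among them the small subunits Atp5k (0.23), Atp5j2 (0.14) and Atp5mpl (-0.25). Atp5pb is also among them, with a change of -0.09 in its brightest probe set. Its dimmer probe set changed by -0.31 without overlap of the groups (limma adjusted p = 0.014 over all probe sets).

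Genes around the chain come from lists that the naming rule does not cover, and the share of calls among all genes was 37.8%. That share depends on level: it was 46.9% for genes at a mean level of 4 to 6 and 63.1% at 6 to 8. The median level was 5.96 for the biogenesis regulators and 6.16 for other assembly factors. It was 6.45 for other electron entry and coenzyme Q genes and 7.82 for the tricarboxylic acid cycle. Of 13 regulators of mitochondrial biogenesis 2 rose and 8 fell (76.9%), with a median change of -0.32. Tfb1m, which modifies the mitochondrial ribosome's RNA, was at 6.37, 6.50 and 6.55 in vehicle and at 4.96, 5.14 and 5.16 with PLX3397, a change of -1.38 (SE 0.09, limma adjusted p = 1.31e-06). Gabpa, the ETS factor named above, changed by -1.16 (SE 0.11, limma adjusted p = 2.27e-05), and the coactivator gene Pprc1 by -0.91 (SE 0.08, limma adjusted p = 1.18e-05). Nrf1 itself changed by 0.18 (interval -0.01 to 0.37, limma adjusted p = 0.13).

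Other assembly factors of complexes I to V rose in 3 and fell in 10 of 37 cases, with a median change of -0.10. Their share of 35.1% was near that of all genes and below the 63.1% of genes at a level of 6 to 8. Lrpprc, which stabilises mitochondrial messenger RNA, changed by -0.87 (SE 0.11, limma adjusted p = 1.10e-04), the complex III factor Bcs1l by -0.59 and the copper chaperone Cox11 by 0.58. Among other ways into the chain, Gpd2, the mitochondrial glycerol phosphate dehydrogenase, was at 9.26, 9.28 and 9.26 in vehicle and at 7.59, 7.64 and 7.65 with PLX3397, a change of -1.64 (SE 0.07, limma adjusted p = 1.23e-07). The list of other electron entry and coenzyme Q genes had 2 rises and 6 falls among 14, with a median change of -0.20. This share of 57.1% stands against 63.1% of genes at a level of 6 to 8. Coq2 and Coq7, enzymes of coenzyme Q synthesis, fell by 0.48 and 0.40.

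The tricarboxylic acid cycle went both ways, with 4 rises and 5 falls among 17 genes and a median change of -0.05. This share of 52.9% stands against 63.1% of genes at a level of 6 to 8. Dld, the lipoamide dehydrogenase shared by several matrix enzymes, fell by 0.98, the fumarase gene Fh1 by 0.69 and Idh3g by 0.59. Of 6 carriers and porins 1 passed, Vdac3, with a change of -0.25 that lost the call in 6 of 17 settings. Of the subunits encoded in mitochondrial DNA, ND3 and COX2 had a probe set with 1 symbol. ND3 was at 10.29, 10.41 and 10.20 and at 10.61, 10.62 and 11.12, a change of 0.48 (SE 0.14, limma adjusted p = 0.017) that lost the call with centred arrays, at a threshold of 0.01 and without vehicle replicate 3. COX2 was at 11.86, 11.92 and 11.87 and at 11.82, 11.67 and 12.17, a change of 0.00 (interval -0.27 to 0.27).

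**Figure D5:**
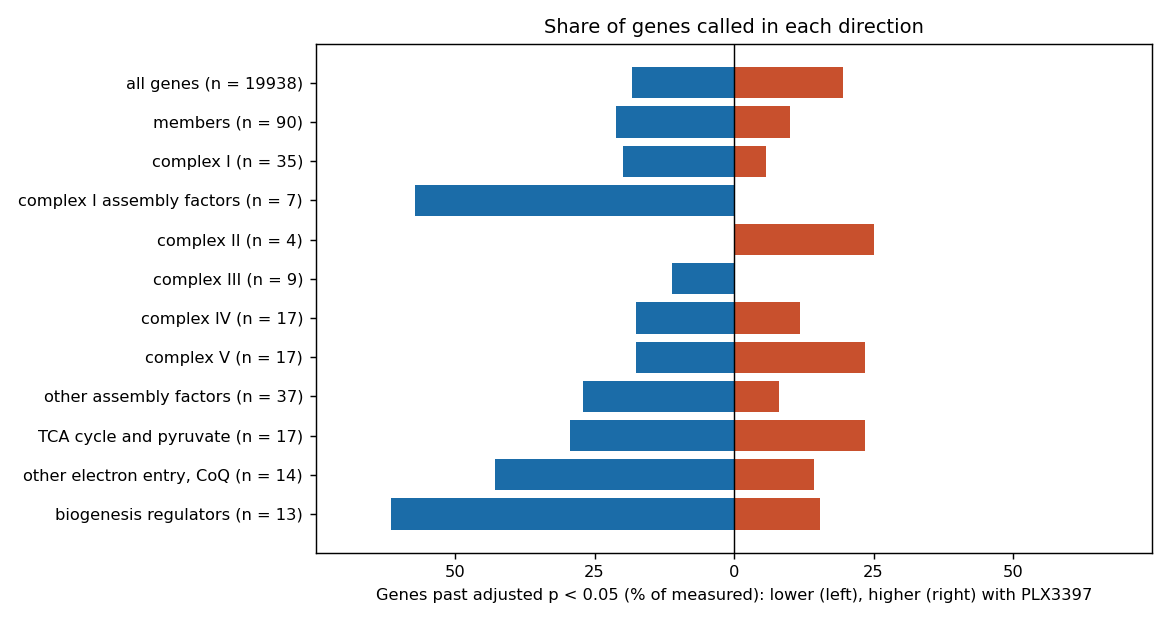
Bars give the percentage of measured genes past the limma threshold in each set, lower to the left and higher to the right, with the number measured in brackets. All genes show 18.3% lower and 19.6% higher; biogenesis regulators have 8 of 13 lower and complex I assembly factors 4 of 7.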

How the data were processed

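Gene expression in 6 samples, 3 per group, was read from the series' value table. Each probe set has a deposited log2 value; base 2 was inferred from a range of 1.57 to 13.5. MAS5 appears in the submitters' processing notes without role or version. How probes were summarised and normalised is not given in the sources used here, and no batch could be tested because scan dates were not analysed here. Array medians differed by less than 0.5, so values were used as deposited.

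Of 28941 probe sets 21789 carried 1 symbol, 1621 several and 5531 none here; all 90 members matched RefSeq by Entrez identifier. The brightest of a gene's probe sets over the 6 arrays stood for it. Groups come from the sample titles. Groups were tested two-sided by moderated linear models with treatment as the single term (R 4.3.3, limma 3.58.1), checked on simulated data. With 3 arrays per group their number limits precision. Same-numbered arrays did not deviate together, so numbers were not taken as pairs.

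Genes were named by a fixed rule: the 10 largest rises and falls past the threshold without overlap, the largest of each complex, catalytic core subunits and tissue isoforms always, and the 3 largest changes of each other list. Ndufs4, Ndufb7, Cox6a1, Atp5o, Ndufa12, Atp5k, Atp5j2, Atp5mpl, Atp5pb, Nrf1, the cell type markers, the remaining Ndufaf genes and the fat genes were named after their values were seen. The members and lists were chosen with earlier results of these data known; the fat list was added after its values were seen. Sequences are from RefSeq (GRCm38.p6). Alternatives are given in the closing section.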

Additional observations from a re-analysis of the deposited data

Results flagged for a closer look

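A probe set that carries both Gm12338 and Cox7c, and so stood outside the comparison, differed between the groups. It changed by 0.26 (10.17 in vehicle, 10.43 with PLX3397, limma adjusted p = 0.036, here over all probe sets). The other probe sets with both symbols did not pass. They changed by 0.24 (limma adjusted p = 0.058) and 0.18 (limma adjusted p = 0.136). Cox7c is a subunit of complex IV.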

How the results depend on the processing

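Of the 28 members past the threshold 13 kept the call in every one of the 17 settings that tested them, and 0 turned sign in any: Sdhd, Atp5md, Atp5l, Ndufaf4, Ndufaf3, Ndufs8, Ndufa5, Ndufab1, Ndufb3, Cycs, Cox6a2, Atp5g1 and Atp5g2. Of the 62 others 18 passed in at least 1 setting. Centring each array gave 3 higher and 31 lower members, a member median of -0.17, 3 calls in complex III and 2282 higher genes in all. Quantile normalisation gave 0 calls in complex III. Genes with a mean level of at least 5 gave 2587 higher in all and 2 calls among assembly factors. A mean level of at least 8 gave 1418 calls in all (717 higher, 701 lower), 12 lower members and 3 calls in complex I. A threshold of 0.01 gave 2475 higher genes in all, 4 higher and 10 lower members, 7 calls among bright members, 4 in complex I, 2 among assembly factors, 0 in complex III and 1 in complex IV. The counts under the filters and the stricter threshold change by construction. Centring also acts by construction, since it lowers every change by 0.13. For the other settings the cause of the differences was not tested.

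Leaving out 1 array gave 5 (without vehicle replicate 2) to 9 higher and 10 (without vehicle replicate 3) to 18 lower members, 5 to 10 calls in complex I, 2 to 4 among assembly factors (2 without vehicle replicate 3 or PLX3397 replicate 1), 0 to 1 in complex III, 2 to 5 in complex IV (2 without vehicle replicate 2, 3 without vehicle replicates 1 or 3 or PLX3397 replicate 2) and 9 to 13 among bright members (9 without vehicle replicates 2 or 3). It gave 6332 to 7101 calls in all, 3124 to 3776 higher and 3208 to 3601 lower. With the replicate number as a block, although the correlations of same-numbered deviations were -0.01, 0.01 and -0.01, 9 members were higher and 17 lower. Adding probe sets with several symbols gave 10 and 19. A filter on the receptor background, added after seeing the data, gave 10 and 19. Dim isoforms near background limit what can be seen.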
